A study of Mus musculus with 8 samples.

Results

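The 10 genes described here encode components of the complement system, namely C1qa, C1qb, C1qc, C1ra, C1s1, C2, C3, C4b, Cfb and Serping1. They were taken by symbol from the table of normalized counts and matched by Ensembl identifier to the count table, which gave 10 of its 55536 genes. RNA was sequenced from 8 HCA-1 tumors, HCA-1 being a mouse hepatocellular carcinoma (HCC) line that was implanted into the liver of male C3H mice. The sample labels give the mice an age of 6 to 8 weeks, whereas the methods of the study give 4 to 6 weeks. On day 17 the mice received 1 intravenous injection of saline (tumors numbered 1, 3, 4 and 5) or of PFSUV-IMQ at 4 mg kg-1 (tumors numbered 1, 2, 3 and 4), and all tumors were taken 3 h later. PFSUV-IMQ is imiquimod, an agonist of the RNA sensor TLR7, loaded into phospholipid-free small unilamellar vesicles. No group that received empty vesicles or free imiquimod was among these 8 tumors, so the drug and its carrier cannot be told apart.

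Complement is a cascade of plasma proteins that marks particles for uptake, recruits leukocytes and lyses membranes. In the classical pathway the recognition molecule C1q, built from the chains of C1qa, C1qb and C1qc, carries the proteases C1r and C1s, which cleave C4 and C2 into the enzyme that cleaves C3. The alternative pathway uses factor B (Cfb) in the place of C2, and the C1 inhibitor (Serping1) blocks C1r and C1s. Hepatocytes make most complement proteins of plasma, while C1q comes mainly from macrophages and dendritic cells, and several of the genes are known to respond to interferons and inflammatory cytokines. Albumin (Alb) is the main secreted protein of hepatocytes, and its level in each tumor was therefore set beside the complement genes. In a whole tumor, fewer cells of a type and less RNA per cell cannot be told apart.

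At 3 h, C2 was the only 1 of the 10 genes that passed the test across all genes, at 2.27 times its level in the saline tumors. Of all genes tested 2.46% passed higher, and C2 lost its call in 5 of 8 fits with 1 tumor left out. C4b had the largest fitted change of the 10, 3.84-fold, but did not pass in the fit of all 8 tumors. It lay higher in every PFSUV-IMQ tumor than in any saline tumor, as did C2 and 6.00% of all genes tested. The 3 C1q genes had nearly equal means in both groups, and C1ra, C1s1, C3 and Serping1 overlapped between the groups. Deviations of C1ra, C1s1, C3 and Serping1 from the group mean followed those of Alb (Pearson's r of 0.89 to 0.95 over 8 tumors). Those of C2, C4b and Cfb did so too (0.84, 0.83 and 0.94). Without saline 4 and PFSUV-IMQ 2, r was 0.46 for Serping1 and 0.14 for C4b. Cfb had few reads, and its groups overlapped by 2 PFSUV-IMQ tumors.

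The promoters of 3 of these genes and of Alb are shown because the levels of C3 and C1s1 followed Alb across the tumors and those of C1qb did so less. They are the 250 bases before the RefSeq transcription start in GRCm38.p6, written 5′ to 3′ on the gene's strand, with a match to the C/EBP letters TTGCNNAA on either strand in capitals. C/EBP is a family of transcription factors active in hepatocytes.
C3, chr17:57228137-57228386, minus strand: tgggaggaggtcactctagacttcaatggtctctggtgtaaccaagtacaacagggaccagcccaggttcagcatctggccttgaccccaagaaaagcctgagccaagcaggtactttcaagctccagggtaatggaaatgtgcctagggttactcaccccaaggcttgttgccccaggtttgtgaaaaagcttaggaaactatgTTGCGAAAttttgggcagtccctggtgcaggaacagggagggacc
C1s1, chr6:124542360-124542609, minus strand: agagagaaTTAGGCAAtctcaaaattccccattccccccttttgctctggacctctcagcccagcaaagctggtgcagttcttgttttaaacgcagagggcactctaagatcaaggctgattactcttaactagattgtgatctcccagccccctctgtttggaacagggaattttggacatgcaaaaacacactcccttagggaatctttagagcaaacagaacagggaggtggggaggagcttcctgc
C1qb, chr4:136886201-136886450, minus strand: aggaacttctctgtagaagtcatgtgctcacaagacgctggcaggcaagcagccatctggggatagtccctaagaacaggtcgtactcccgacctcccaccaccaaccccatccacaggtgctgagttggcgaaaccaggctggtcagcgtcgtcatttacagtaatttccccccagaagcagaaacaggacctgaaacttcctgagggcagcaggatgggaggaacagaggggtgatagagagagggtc
Alb, chr5:90460620-90460869, plus strand: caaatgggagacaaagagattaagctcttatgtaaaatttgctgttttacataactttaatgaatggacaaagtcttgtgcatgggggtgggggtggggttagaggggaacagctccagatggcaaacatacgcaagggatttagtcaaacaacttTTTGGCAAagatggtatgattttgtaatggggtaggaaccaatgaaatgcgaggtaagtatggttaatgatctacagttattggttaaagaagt

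The match lies at bases -45 to -38 of C3, -242 to -235 of C1s1 and -94 to -87 of Alb, where -1 is the base before the start, and C1qb had none. Such a match occurred in 9.56% of 32851 promoters of this length. RefSeq gave promoters for 5 of the 10 genes, and C1s1 had a second start whose window held no match. The core of the interferon-stimulated response element (GAAA, any 2 bases, GAAA) and the STAT letters TTCNNNGAA, found in 2.98% and 7.02% of promoters, were on neither strand in the windows of these 5 genes or of Alb. The letters GAGGAAG, bound by the myeloid factor PU.1 and found in 10.6% of promoters, matched on the opposite strand at -194 to -188 of C1qc. The window of C1ra, which is not shown, matched no motif searched, and the level of C1ra also followed Alb (Pearson's r of 0.92 over 8 tumors). A relation between these matches and the levels was not tested. Promoters of C1qa, C2, C4b, Cfb and Serping1 were not analysed here.

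The 4 saline libraries held 16883911 to 27687756 counts each, and the 4 PFSUV-IMQ libraries 17008151 to 18527613. Levels are given as CPM, which sets counts to an equal library size after TMM scaling, and 3 counts, taken as the floor, equal 0.105 to 0.210 CPM in these tumors and cover counting error only. The labels do not say that the tumors of a group came from separate animals, so p-values measure the spread between these samples. The labelled tissue was checked against hepatocyte genes, and all 15 of a list that includes Alb and Apoa1 were detected, with a summed level of 5956 to 43852 CPM in the saline group and 8758 to 46775 CPM in the PFSUV-IMQ group. Implanted HCC cells and the mouse's own liver cells could both contribute to them and cannot be told apart. Saline 4 and PFSUV-IMQ 2 held the highest Alb of their groups, and results are given below with and without these tumors.

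C1q is the recognition part of the classical pathway, and its 3 chains are encoded side by side on chromosome 4 (GRCm38), C1qb at 136880129-136886187, C1qc at 136889804-136893065 and C1qa at 136895917-136898803. C1qa measured 302, 337, 417 and 373 CPM in saline 1, 3, 4 and 5 and 425, 497, 260 and 237 CPM in PFSUV-IMQ 1, 2, 3 and 4. C1qb measured 215, 227, 306 and 246 CPM in the saline tumors and 274, 333, 180 and 174 CPM in the PFSUV-IMQ tumors, in the same order. C1qc measured 221, 252, 326 and 271 CPM and 287, 382, 199 and 196 CPM. For all 3 chains, PFSUV-IMQ 3 and 4 lay below every saline tumor, PFSUV-IMQ 2 lay above every saline tumor, and the groups overlapped. The fitted log2 fold change was -0.01 ± 0.26 (SE) for C1qa, -0.05 ± 0.24 for C1qb and -0.0084 ± 0.25 for C1qc, with adjusted p of 0.993, 0.964 and 0.994 (edgeR quasi-likelihood test, 4 against 4 tumors). For C1qa and C1qc the sign changed with DESeq2's size factors, to 0.0016 and 0.0051. The 95% intervals of the fold were 0.660 to 1.49 for C1qa, 0.662 to 1.41 for C1qb and 0.676 to 1.46 for C1qc, so a change smaller than about these bounds could not be shown with these tumors.

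The chains kept close to 1 ratio in every tumor. C1qa stood at 1.37 to 1.51 times C1qb in the saline tumors and at 1.36 to 1.55 times in the PFSUV-IMQ tumors. C1qc stood at 1.03 to 1.11 and 1.05 to 1.15 times C1qb. Both ratios overlapped between the groups while the level of each chain spanned 1.38 to 1.48-fold within the saline group and at least 1.91-fold within the PFSUV-IMQ group.

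**Figure D1:**
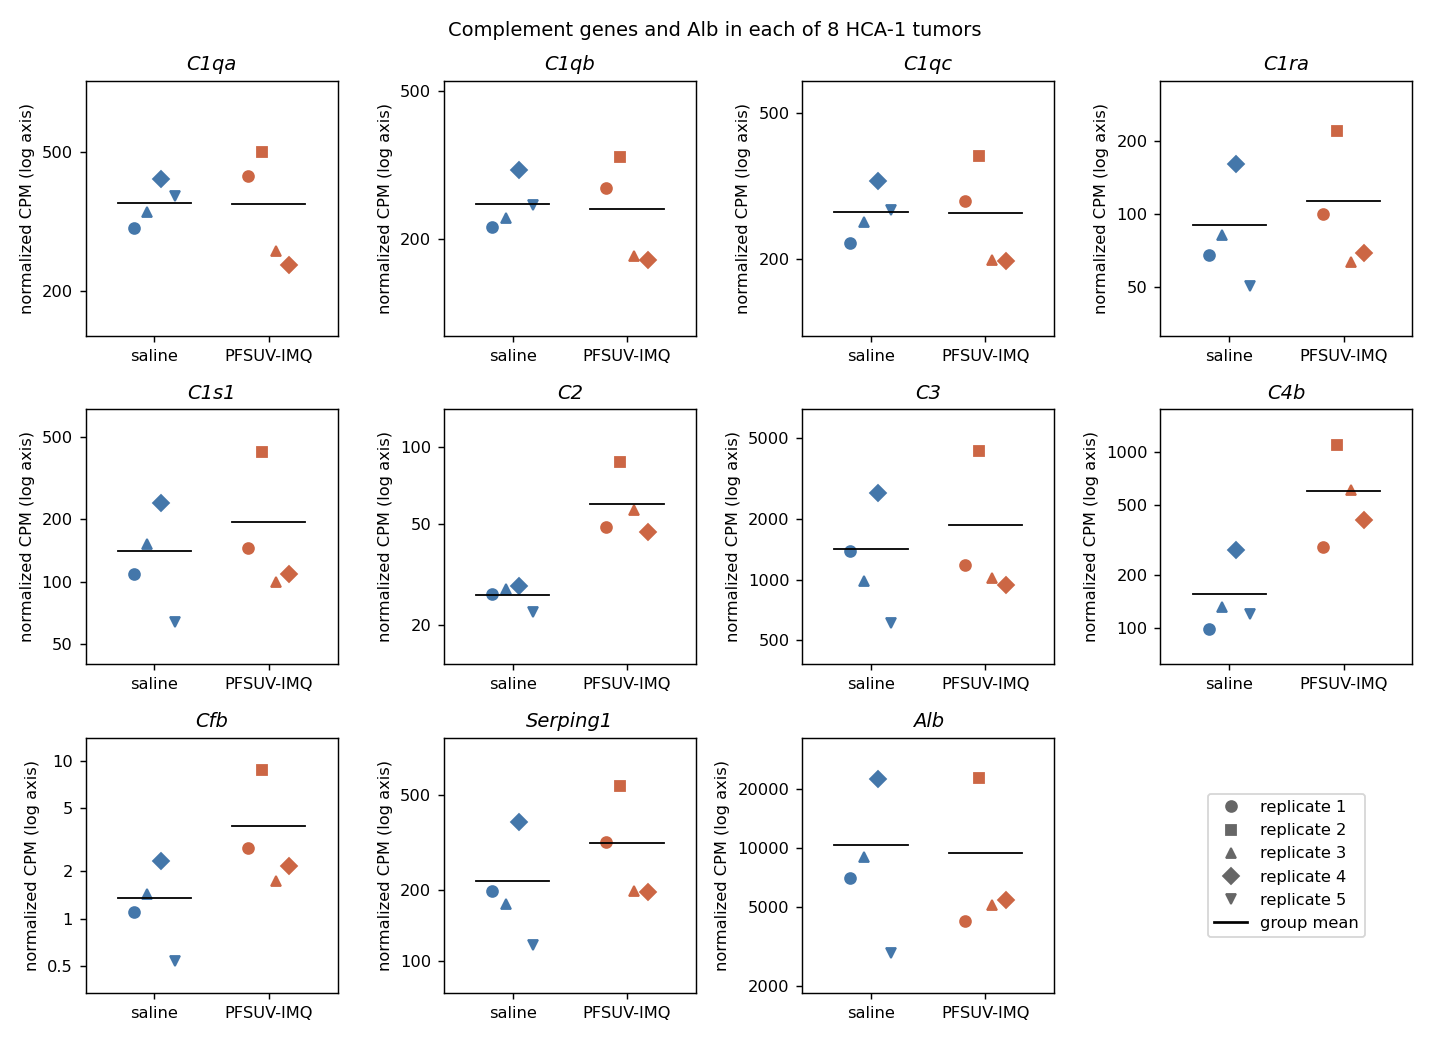
Normalized CPM of the 10 complement genes and of Alb (log axes) in the 4 saline and the 4 PFSUV-IMQ tumors, 1 point per tumor with its replicate number as the symbol and the group mean as a line. The groups separate for C2 (22.5 to 28.5 against 46.2 to 87.3 CPM) and C4b (98.6 to 275 against 289 to 1088 CPM) and overlap in the other panels.

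C1r and C1s are the proteases that C1q activates. C1ra (chr6:124512405-124523443) and C1s1 (chr6:124530345-124542359) are neighbours in the mouse genome. C1ra measured 67.9, 81.7, 160 and 50.3 CPM in saline 1, 3, 4 and 5 and 99.7, 221, 63.5 and 68.8 CPM in PFSUV-IMQ 1 to 4. C1s1 measured 109, 152, 238 and 63.9 CPM and 146, 423, 99.6 and 109 CPM. In both genes saline 4 and PFSUV-IMQ 2 were the highest of their groups, saline 5 was the lowest of all tumors, and the groups overlapped. The log2 fold change was 0.33 ± 0.46 (SE) for C1ra (edgeR adjusted p = 0.852) and 0.46 ± 0.53 for C1s1 (edgeR adjusted p = 0.805). Without PFSUV-IMQ 2 these estimates changed sign, to -0.24 and -0.27, and without saline 4 they were 0.76 and 0.84. C1s1 stood at 1.27 to 1.86 times C1ra in the saline tumors and at 1.46 to 1.92 times in the PFSUV-IMQ tumors. Of the 50-base words of the C1ra transcript, 50.8% also occur in another gene, mostly the paralog C1rb, and 24.3% of those of C1s1 occur in C1s2, so the division of reads within each pair is uncertain. The antisense gene Gm16567 overlaps 18.4% of the exon bases of C1s1, and without a known strand setting their reads cannot be told apart.

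Serping1 (chr2:84765387-84775444) encodes the inhibitor of both proteases and shares no such word with another gene. It measured 196, 174, 386 and 117 CPM in saline 1, 3, 4 and 5 and 318, 545, 197 and 195 CPM in PFSUV-IMQ 1 to 4. All PFSUV-IMQ tumors lay above saline 5 and saline 3, and only PFSUV-IMQ 2 lay above saline 4. The log2 fold change was 0.52 ± 0.43 (SE) with an adjusted p of 0.717 (edgeR), and the interval of the fold, 0.735 to 2.81, included 1.

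C4b and C2 supply the fragments of the C3-cleaving enzyme of the classical and lectin pathways and lie with Cfb in the major histocompatibility complex on chromosome 17. C4b (chr17:34728380-34743882) measured 98.6, 131, 275 and 120 CPM in saline 1, 3, 4 and 5. It measured 289, 1088, 609 and 411 CPM in PFSUV-IMQ 1, 2, 3 and 4. The groups did not overlap, but saline 4 and PFSUV-IMQ 1 were close to each other at the boundary. The mean was 156 ± 80.4 CPM (SD, n = 4) in the saline tumors and 599 ± 352 CPM (SD, n = 4) in the PFSUV-IMQ tumors. The log2 fold change of 1.94 ± 0.46 (SE) had an unadjusted p of 0.00208 and an adjusted p of 0.0665 (edgeR), above the threshold of 0.05. Left out 1 at a time, 2 tumors brought the gene past the threshold, saline 4 (2.36, edgeR adjusted p = 0.0384) and PFSUV-IMQ 1 (2.17, edgeR adjusted p = 0.0427). Over 18 alternative settings the adjusted p of C4b ranged from 5.5e-04 to 0.203, with the lowest value in DESeq2's Wald test.

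C2 (chr17:34862604-34898265) was low and even in the saline tumors, at 26.6, 27.6, 28.5 and 22.5 CPM in replicates 1, 3, 4 and 5. It measured 48.7, 87.3, 56.7 and 46.2 CPM in PFSUV-IMQ 1 to 4. Every PFSUV-IMQ tumor thus lay above every saline tumor, and the lowest of them stood well clear of the highest saline tumor. The mean was 26.3 ± 2.67 CPM (SD, n = 4) in the saline tumors and 59.7 ± 18.9 CPM (SD, n = 4) in the PFSUV-IMQ tumors. C2 rose with a log2 fold change of 1.18 ± 0.22 (SE) and an adjusted p of 0.0227 (edgeR), and the 95% interval of the fold was 1.61 to 3.20. Left out 1 at a time, each saline tumor and PFSUV-IMQ 3 ended this call, with adjusted p of 0.0810, 0.0752, 0.0586 and 0.0548 without saline 1, 3, 4 and 5 and 0.0588 without PFSUV-IMQ 3 (edgeR), while the log2 fold change stayed between 0.92 and 1.30.

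Cfb (chr17:34856374-34862518), whose protein takes the place of C2 in the alternative pathway, is the next gene along the chromosome from C2. It had 24, 41, 54 and 10 reads in saline 1, 3, 4 and 5 and 51, 125, 31 and 39 reads in PFSUV-IMQ 1 to 4. In CPM these were 1.11, 1.44, 2.32 and 0.543 against 2.81, 8.73, 1.73 and 2.15. PFSUV-IMQ 1 and 2 lay above every saline tumor, and PFSUV-IMQ 3 and 4 lay between saline 3 and saline 4. The log2 fold change of 1.49 ± 0.60 (SE) had an unadjusted p of 0.0331 and an adjusted p of 0.321 (edgeR). The estimate was 0.69 without PFSUV-IMQ 2, 1.87 without saline 4 and 1.07 without both. Gm20547, a gene model that reads through C2 and Cfb, covers 79.5% of the exon bases of Cfb, and together with the antisense gene Zbtb12 46.9% of those of C2, and was listed at 0 reads in every tumor. How reads of overlapping genes were counted is not given in the sources used here, and the part of this overlap in the low counts of Cfb was not tested.

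C3, the protein on which all pathways converge, was the most abundant of the 10 genes in CPM (chr17:57203970-57228136). It measured 1387, 984, 2681 and 609 CPM in saline 1, 3, 4 and 5 and 1180, 4334, 1022 and 937 CPM in PFSUV-IMQ 1 to 4. PFSUV-IMQ 2 was the highest of all tumors, and the other 3 PFSUV-IMQ tumors lay within the range of the saline tumors. The mean was 1415 ± 901 CPM (SD, n = 4) in the saline group and 1868 ± 1647 CPM (SD, n = 4) in the PFSUV-IMQ group. The log2 fold change was 0.40 ± 0.60 (SE) with an adjusted p of 0.862 (edgeR), and the 95% interval of the fold was 0.520 to 3.35. The estimate was -0.45 without PFSUV-IMQ 2 and 0.91 without saline 4.

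Over the 10 genes, 1 passed the test in the higher direction and 0 in the lower, against 2.46% and 0.219% of the 15998 genes tested. At an unadjusted p under 0.05 (edgeR), 3 genes (C2, C4b and Cfb) were higher and 0 lower, against 8.34% and 4.65% of all genes. The groups did not overlap for 2 genes, both higher, while 6.00% of all genes were higher and 3.28% lower without overlap. The median log2 fold change was 0.43 for the 10 genes and -0.03 for all genes tested. DESeq2's Wald test called 2 of the 10 genes higher, C2 and C4b, and 0 lower, against 4.46% and 1.06% of all genes.

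Per kilobase of exon, counting every annotated exon base of a gene, the order of the genes in the saline tumors differed from that in CPM. For C1qc this length was 1931 bases, against 1203 in its longest transcript, so its distance from C1qb depends on the length used. C1qa had the highest mean level at 344 ± 47.4 CPM per kb (SD, n = 4), followed by C3 at 275 ± 175 and C1qb at 228 ± 37.0 CPM per kb. The interval of mean ± SD of C3 held the means of C1qa and C1qb, so the group means do not place it above or below them. C1qc followed at 139 ± 22.9, Serping1 at 93.9 ± 50.1, C1s1 at 45.0 ± 23.8, C1ra at 30.2 ± 16.3 and C4b at 27.4 ± 14.1 CPM per kb. The intervals of mean ± SD of the last 3 overlapped. These SDs are spreads between tumors and do not order genes within a tumor. Within the saline tumors C1s1 stood at 1.27 to 1.86 times C1ra in CPM. C2 had 6.79 ± 0.689 and Cfb 0.479 ± 0.263 CPM per kb, the lowest of the 10. Dividing all reads of a gene by only its exon bases free of other genes left them lowest at 12.8 ± 1.30 and 2.34 ± 1.28 CPM per kb. Those values hold only if no read in the overlapped bases was counted. In the PFSUV-IMQ tumors C4b had 105 ± 61.7 CPM per kb and stood at rank 6 of 10, after rank 8 in the saline tumors.

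Alb (chr5:90460897-90476602) measured 7075, 9027, 22446 and 2938 CPM in saline 1, 3, 4 and 5 and 4259, 22736, 5131 and 5479 CPM in PFSUV-IMQ 1 to 4. It thus spanned 7.64-fold within the saline group and 5.34-fold within the PFSUV-IMQ group, with saline 4 and PFSUV-IMQ 2 far above the rest and nearly equal to each other. Its log2 fold change was -0.14 ± 0.71 (SE) with an adjusted p of 0.964 (edgeR), and the estimate was 0.56 without saline 4 and -1.08 without PFSUV-IMQ 2. The same pair of tumors was the highest of its group in all 10 complement genes, which held for 21.1% of all genes tested. Saline 5, the tumor with the least Alb of all 8, was the lowest saline tumor for 6 of the 10 genes, against 35.5% of all genes.

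Deviations from the group mean in log2 CPM were set against those of Alb over the 8 tumors, as a description in which all points of a tumor share 1 library. Pearson's r was 0.95 for C1s1, 0.95 for C3, 0.94 for Cfb, 0.92 for C1ra, 0.89 for Serping1, 0.84 for C2 and 0.83 for C4b, and 0.48, 0.60 and 0.63 for C1qa, C1qb and C1qc. Spearman's rho ran from 0.64 (C4b) to 0.93 (Cfb) in the first 7 genes and from 0.29 to 0.40 in the C1q genes. Without saline 4 and PFSUV-IMQ 2, r over the 6 other tumors was 0.55 to 0.79 for C1ra, C1s1, C2, C3 and Cfb, 0.46 for Serping1, 0.14 for C4b and -0.45 to -0.42 for the C1q genes. The relation of C4b and of the C1q genes to Alb therefore rested on those 2 tumors.

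**Figure D2:**
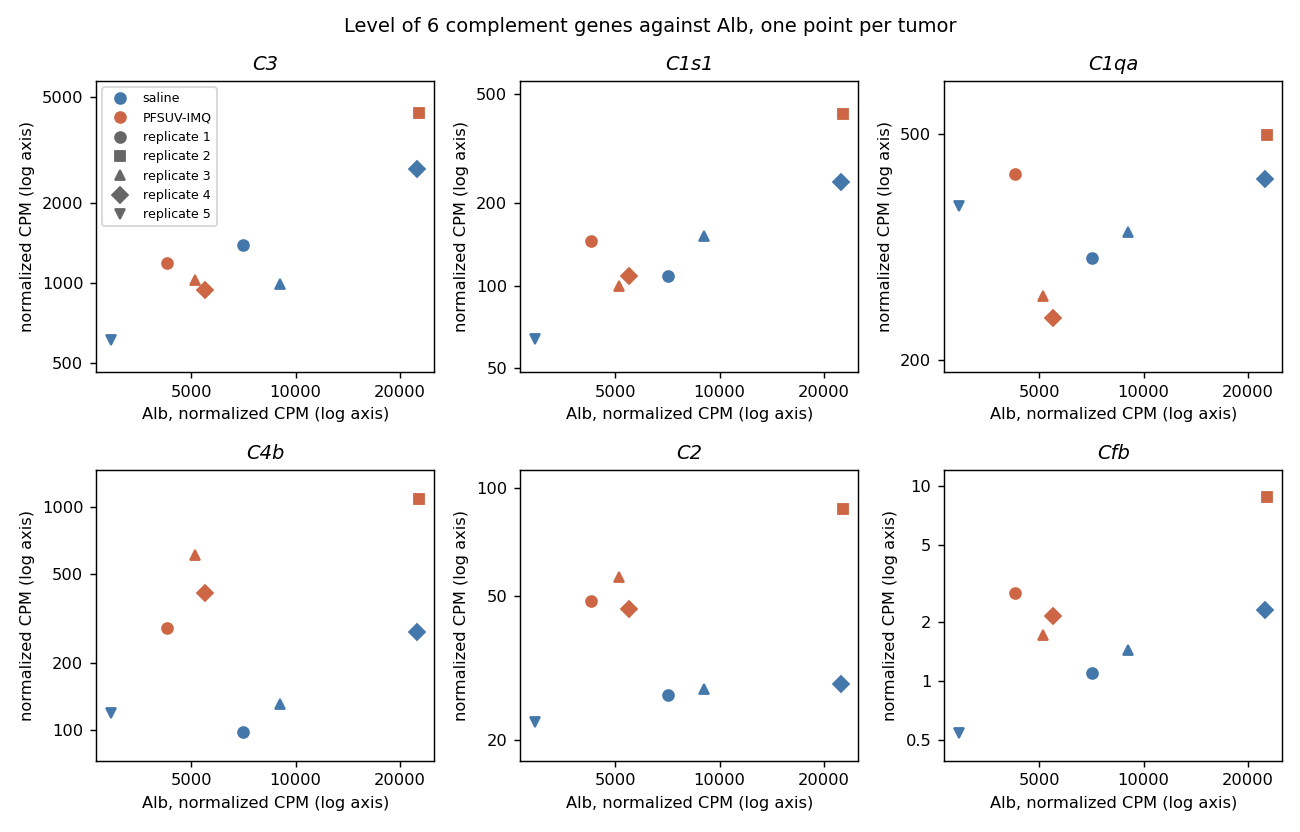
Normalized CPM of C3, C1s1, C1qa, C4b, C2 and Cfb against that of Alb (log axes), 1 point per tumor, with saline in blue, PFSUV-IMQ in orange and the replicate number as the symbol. PFSUV-IMQ 2 and saline 4 stand at the right at 22736 and 22446 CPM of Alb, and at this matched level PFSUV-IMQ 2 has 1088 against 275 CPM of C4b and 87.3 against 28.5 CPM of C2.

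Saline 4 and PFSUV-IMQ 2, which had nearly the same Alb, allow a side-by-side reading of 1 tumor of each group without a test. They did not match in all hepatocyte genes, which differed between them in both directions. Tat stood at 287 CPM in saline 4 and 899 CPM in PFSUV-IMQ 2, and Fgb at 2251 and 3911 CPM. Cyp2e1 stood at 2131 and 1538 CPM and Ahsg at 3595 and 2533 CPM. C4b stood at 275 CPM in the saline tumor and at 1088 CPM in the PFSUV-IMQ tumor. C2 stood at 28.5 and 87.3 CPM and Cfb at 2.32 and 8.73 CPM. The gap was narrower for C3 (2681 and 4334 CPM), C1s1 (238 and 423 CPM), Serping1 (386 and 545 CPM) and C1qa (417 and 497 CPM).

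Expressed relative to Alb in the same tumor, C4b had a log2 ratio of -6.16, -6.11, -6.35 and -4.62 in saline 1, 3, 4 and 5 and of -3.88, -4.39, -3.07 and -3.74 in PFSUV-IMQ 1 to 4. Every PFSUV-IMQ tumor was above every saline tumor, with a difference of the means of 2.04. Cfb had log2 ratios of -12.6, -12.6, -13.2 and -12.4 against -10.6, -11.3, -11.5 and -11.3, again without overlap, and a difference of 1.53. Groups that were higher without overlap relative to Alb occurred in 2.15% of all genes tested, and lower groups without overlap in 0.638%. For C2 the ratios overlapped, with saline 5 at -7.03 above PFSUV-IMQ 2 at -8.02, and the difference of the means was 1.30. The C1q genes differed by 0.07 to 0.11, C1ra by 0.43, C3 by 0.44, C1s1 by 0.51 and Serping1 by 0.68, all with overlap.

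A fit with the log2 CPM of Alb in each tumor as a covariate called 3 of the 10 genes higher and 0 lower, against 5.71% and 1.46% of all genes. They were C2 (1.18 ± 0.15, adjusted p = 6.5e-04), C4b (1.96 ± 0.26, adjusted p = 7.6e-04) and Cfb (1.54 ± 0.29, adjusted p = 0.00767), given as log2 fold change ± SE from edgeR. The estimates were close to those without the covariate, and their SEs were smaller. The other genes did not pass, with 0.65 ± 0.21 for Serping1 (edgeR adjusted p = 0.109), 0.50 ± 0.19 for C1s1 (0.166), 0.40 ± 0.20 for C1ra (0.281), 0.40 ± 0.21 for C3 (0.309) and -0.04 to -0.0060 for the C1q genes. With the mean of the hepatocyte list in place of Alb, C2 (1.08 ± 0.16, edgeR adjusted p = 0.00190) and C4b (1.71 ± 0.25, edgeR adjusted p = 0.00163) passed and Cfb did not (1.26 ± 0.35, edgeR adjusted p = 0.0529), against 4.85% of all genes higher and 2.60% lower.

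Without both saline 4 and PFSUV-IMQ 2, a choice made after seeing the data, 2 of the 10 genes passed higher and 0 lower, against 1.86% and 0.187% of all genes. C2 was 0.96 ± 0.18 (edgeR adjusted p = 0.0324) and C4b 1.89 ± 0.28 (edgeR adjusted p = 0.0121) on the log2 scale. C3 was 0.05 ± 0.29 and C1s1 0.10 ± 0.31 in this fit, both with an edgeR adjusted p above 0.95. Cfb was 1.07 ± 0.43 (edgeR adjusted p = 0.388).

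**Figure D3:**
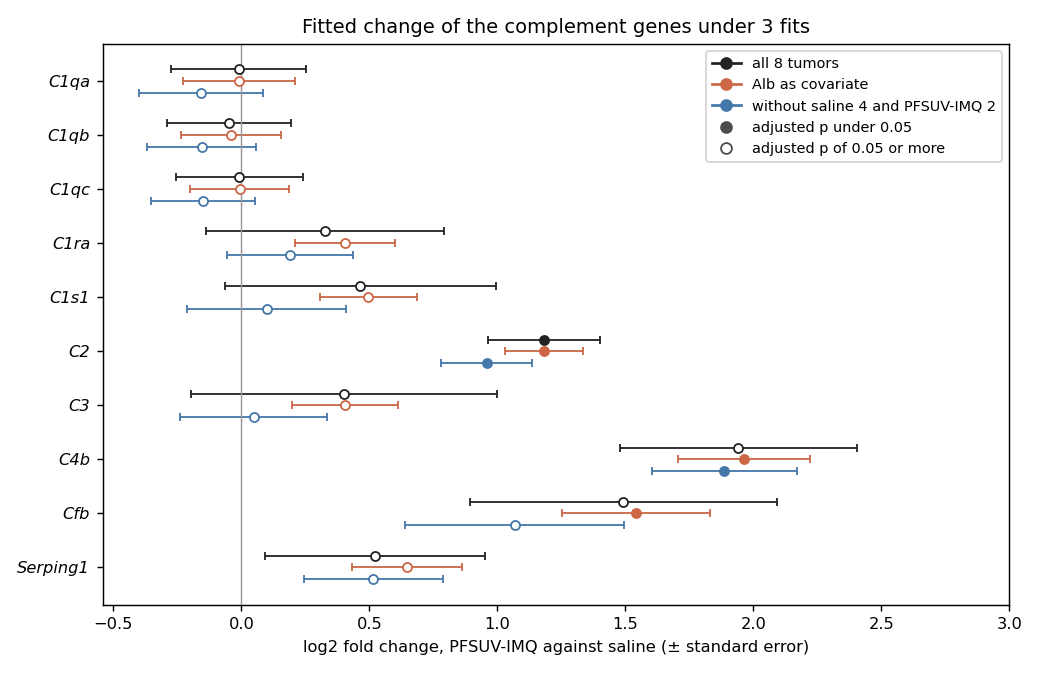
Log2 fold change of the 10 complement genes, PFSUV-IMQ against saline, with its standard error in edgeR fits of all 8 tumors (black), with Alb as a covariate (orange) and without saline 4 and PFSUV-IMQ 2 (blue), filled where the adjusted p is under 0.05. C2 is filled in all 3 fits (1.18, 1.18 and 0.96), C4b in 2 of them (1.96 and 1.89), and Cfb with Alb as a covariate (1.54).

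Macrophages are the main source of C1q, and their markers were measured in the same tumors. The 12 genes of the list summed to 1357 to 2183 CPM in the saline tumors and to 1026 to 2069 CPM in the PFSUV-IMQ tumors. In the order of replicates 1 to 4, the PFSUV-IMQ tumors had 1804, 2069, 1026 and 1108 CPM, so that PFSUV-IMQ 3 and 4, the tumors with the least C1q, also had the lowest sums of all 8 tumors. The most abundant, Lyz2 and Mrc1, had log2 fold changes of -0.28 ± 0.31 (SE, edgeR adjusted p = 0.792) and -0.40 ± 0.38 (SE, edgeR adjusted p = 0.763). Of the 12 genes, 1 passed higher and 0 lower, against 2.46% and 0.219% of all genes. It was the high-affinity IgG receptor Fcgr1 (1.32 ± 0.26, edgeR adjusted p = 0.0290), which is named after its values were seen. Fcgr1 lost the call without any 1 of the 4 saline tumors (edgeR adjusted p of 0.0512 to 0.107). Further genes of the list, also named after their values were seen, had estimates in both directions and did not pass. The Kupffer cell marker Clec4f was at 16.1 to 41.8 CPM in the saline tumors and 13.6 to 18.7 CPM in the PFSUV-IMQ tumors (-0.96 ± 0.27, unadjusted p = 0.00566, edgeR adjusted p = 0.122), and a second one, Timd4, was at 5.10 to 11.8 and 4.91 to 17.0 CPM (0.14 ± 0.44, edgeR adjusted p = 0.946). The scavenger receptor Cd163 was at 5.10 to 11.4 and 2.76 to 5.24 CPM (-1.02 ± 0.33, edgeR adjusted p = 0.183) and the growth factor receptor Csf1r at 87.6 to 175 and 42.7 to 107 CPM (-0.75 ± 0.33, edgeR adjusted p = 0.388). Cd14, a co-receptor of lipopolysaccharide, was at 81.9 to 86.5 CPM in the saline tumors and 105 to 154 CPM in the PFSUV-IMQ tumors (0.63 ± 0.17, edgeR adjusted p = 0.104). It was higher without overlap, as were 6.00% of all genes. With the mean of this list as a covariate 4 of the 10 complement genes passed higher, C2, C4b, Cfb and Serping1 (0.85 ± 0.20, edgeR adjusted p = 0.0439), against 4.33% of all genes (0.338% lower), and C1qa, C1qb and C1qc stood at 0.10, 0.08 and 0.12 without passing. The part of macrophage content in the levels of C1q was not tested.

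Fibroblasts and endothelial cells also express complement genes. Fibroblast markers (8 genes, led by Col1a1 and Col1a2) summed to 2423 to 3294 CPM in the saline tumors and to 2994 to 8042 CPM in the PFSUV-IMQ tumors, where PFSUV-IMQ 1 was the highest. Endothelial markers (8 genes, led by Cdh5 and Pecam1) summed to 139 to 220 and 123 to 170 CPM. Of these 16 genes 0 passed the test in either direction (edgeR), against 2.46% of all genes higher and 0.219% lower.

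Within the pairs of complement genes that act together or share sequence, the ratio of C4b to C4a did not overlap between the groups. C4a (chr17:34809092-34823464) is the second C4 gene of the mouse, is annotated as a processed transcript, and holds 35.2% of the 50-base words of C4b. It measured 7.14, 9.49, 21.4 and 8.90 CPM in the saline tumors and 19.7, 69.4, 18.5 and 13.3 CPM in the PFSUV-IMQ tumors, with overlap. C4b stood at 13.8, 13.8, 12.9 and 13.5 times C4a in saline 1, 3, 4 and 5, a narrow range. In PFSUV-IMQ 1 and 2 it stood at 14.7 and 15.7 times C4a and in PFSUV-IMQ 3 and 4 at 32.9 and 30.8 times, all above the saline tumors. C4a had a log2 fold change of 1.36 ± 0.56 (SE, edgeR adjusted p = 0.329). The estimate was 0.54 without PFSUV-IMQ 2, 1.82 without saline 4 and 0.99 without both. Reads that fit both genes could not be followed in the counts, so how the ratio depends on their assignment was not tested.

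C4b also stood higher relative to C3 in the PFSUV-IMQ tumors. The ratio was 0.0711, 0.133, 0.103 and 0.197 in saline 1, 3, 4 and 5 and 0.245, 0.251, 0.596 and 0.439 in PFSUV-IMQ 1 to 4, without overlap. The ratio of C4b to C2, its partner in the same enzyme, overlapped (3.71 to 9.64 against 5.93 to 12.5). The ratio of C2 to Cfb (12.3 to 41.4 against 10.0 to 32.8) and that of C3 to C1s1 (6.47 to 12.8 against 8.10 to 10.3) overlapped.

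**Figure D4:**
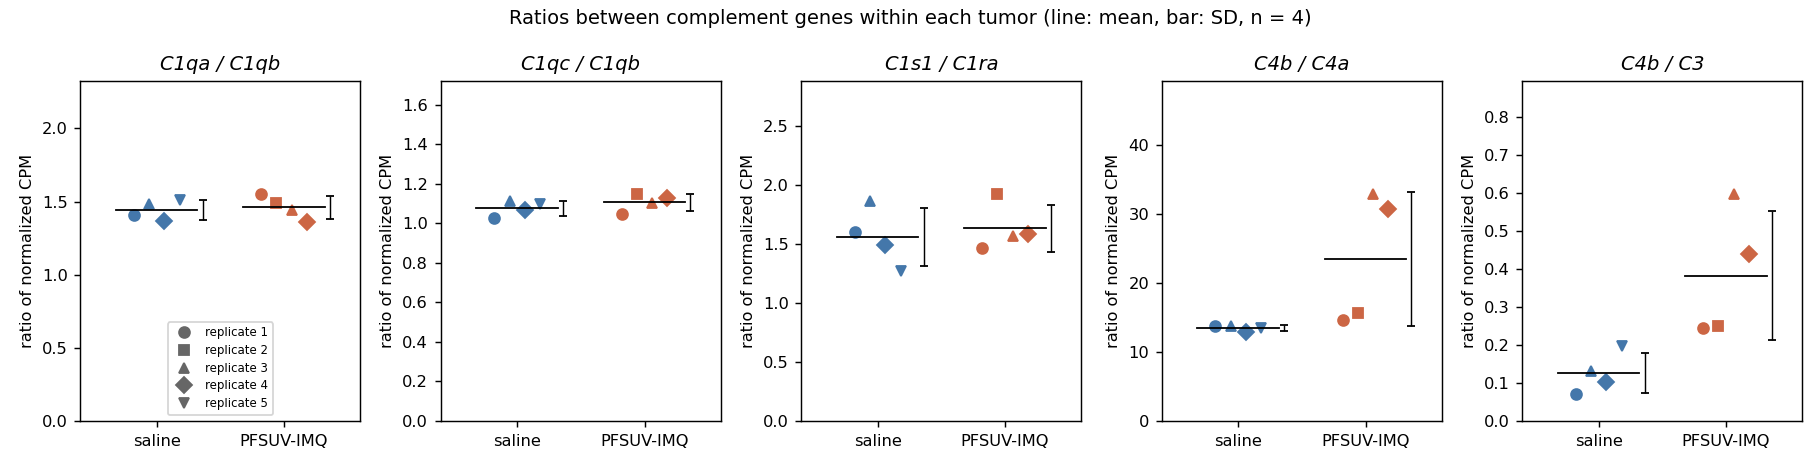
Ratio of normalized CPM between pairs of complement genes in each tumor, with the group mean as a line and the SD (n = 4) as a bar. C1qa to C1qb, C1qc to C1qb and C1s1 to C1ra overlap between the groups, whereas C4b to C4a (12.9 to 13.8 against 14.7 to 32.9) and C4b to C3 (0.0711 to 0.197 against 0.245 to 0.596) do not.

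The genes whose deviations from the group mean were most like those of each complement gene over the 8 tumors were sought among all tested genes, by Pearson's r. Members of the set were among the 3 nearest in 3 cases, C1qc for C1qb (r = 0.989), Cfb for C1s1 and C1s1 for Cfb (r = 0.997). The nearest gene was Mmp2 for C1qb (r = 0.999), Gm13546 for C1qa (r = 0.988) and Arhgdib for C1qc (r = 0.995). It was Rnf130 for C1ra (r = 0.995), Tiam1 for C3 (r = 0.989), Acat2 for Serping1 (r = 0.995), Gm43128 for C2 (r = 0.982) and Gm12247 for C4b (r = 0.996). With 15998 genes and 8 tumors, values this high are a description of these libraries, in which saline 4 and PFSUV-IMQ 2 stand apart.

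Of 45 other complement genes 39 could be tested, and 0 of them passed higher and 1 lower, against 2.46% and 0.219% of all genes, with a median log2 fold change of 0.01. Among 14 further genes of initiation (C1r and C1s relatives, lectins, their proteases, factor D and properdin) 12 were tested and 0 passed. The largest changes were those of C4a, of C1rb, a paralog of C1ra (0.94 ± 0.46, edgeR adjusted p = 0.440), and of the collectin Colec11 (-0.72 ± 0.36, edgeR adjusted p = 0.464). C1rb was 0.33 without PFSUV-IMQ 2, 1.12 without saline 4 and 0.50 without both. Of the 7 genes of the membrane attack complex 0 passed, with C7 at 0.64 ± 0.82, C8a at -0.54 ± 0.75 and C8g at 0.41 ± 0.74 (edgeR adjusted p above 0.8 for each). Of 15 regulators 13 were tested and 0 passed, the largest changes being those of the membrane cofactor Cd46 (0.53 ± 0.38), vitronectin, Vtn (0.52 ± 0.66), and the sushi domain protein Susd4 (-0.51 ± 0.73). With Alb as a covariate C4a (1.29 ± 0.28, edgeR adjusted p = 0.0185), C1rb (0.91 ± 0.23, edgeR adjusted p = 0.0346) and Vtn (0.64 ± 0.17, edgeR adjusted p = 0.0445) passed higher, 3 of the 39 genes, against 5.71% of all genes.

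Of 9 complement receptors 7 were tested, and 0 passed higher and 1 lower, against 2.46% and 0.219% of all genes. Vsig4, the receptor by which liver macrophages bind C3 fragments, measured 13.0, 11.9, 28.4 and 15.8 CPM in saline 1, 3, 4 and 5 and 4.69, 8.59, 3.74 and 5.51 CPM in PFSUV-IMQ 1 to 4. All PFSUV-IMQ tumors lay below all saline tumors, as they did for 3.28% of all genes. Vsig4 fell by 1.62 ± 0.35 (SE) on the log2 scale with an adjusted p of 0.0453 (edgeR). It lost the call without any 1 of the saline tumors or of PFSUV-IMQ 1, 3 and 4, with edgeR adjusted p of 0.0688 to 0.124. Of the 12 macrophage markers 8 had estimates of the same direction without passing. Among them were Clec4f (-0.96 ± 0.27), Cd163 (-1.02 ± 0.33) and Csf1r (-0.75 ± 0.33). The other 4 had estimates above 0, namely Fcgr1 (1.32 ± 0.26), which passed, Cd14 (0.63 ± 0.17), Mertk (0.26 ± 0.15) and the Kupffer cell marker Timd4 (0.14 ± 0.44). Cd93, a receptor of endothelial and myeloid cells once described as a C1q receptor, also did not overlap (47.5 to 62.9 against 27.8 to 43.8 CPM), but did not pass (-0.56 ± 0.19, edgeR adjusted p = 0.218). C3ar1, the receptor of the fragment C3a, was at 30.6 to 72.9 CPM against 39.4 to 110 CPM (0.32 ± 0.34, edgeR adjusted p = 0.791). With the mean of the macrophage list as a covariate Vsig4 was at -1.38 ± 0.25 (edgeR adjusted p = 0.0123), in a fit where 0.338% of all genes passed lower. This list holds genes with estimates in both directions. The part of macrophage content in the level of Vsig4 was not tested.

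**Figure D5:**
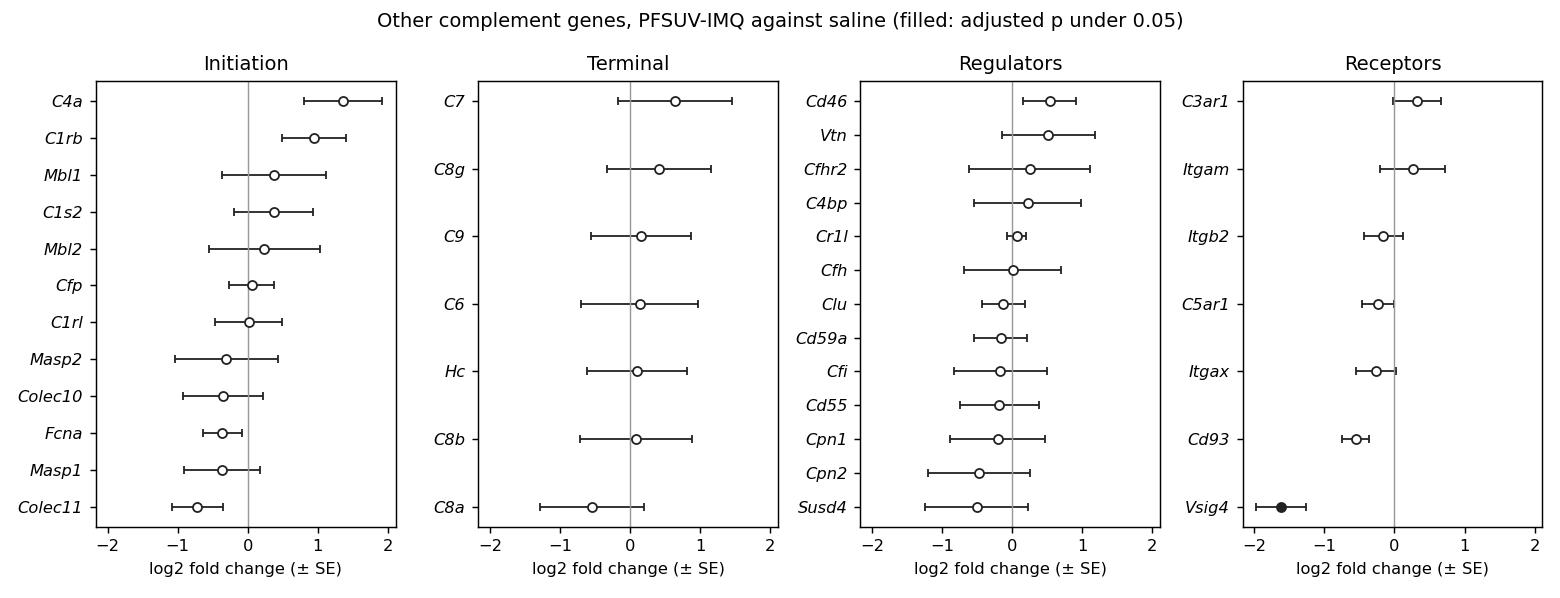
Log2 fold change of the 39 other complement genes that were tested, PFSUV-IMQ against saline, with its standard error, grouped as initiation, terminal, regulators and receptors and filled where the edgeR adjusted p is under 0.05. Vsig4 (-1.62) is the only filled point of the 39, in the fit of all 8 tumors.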

How the data were processed

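Bulk RNA-seq libraries (RNeasy extraction, KAPA mRNA HyperPrep) of 8 HCA-1 tumors were analysed, 4 after saline and 4 after PFSUV-IMQ. The authors deposited raw counts of reads per gene, which were the input of every test. The methods of the study name TopHat and HTSeq, whereas the submitters' processing notes name Trimmomatic 0.38, HISAT2 2.1.0 and featureCounts 2.0.0. The genome build, the strand setting and the handling of reads that fit several genes are not given in the sources used here. The authors also deposited DESeq2-normalized values, a signal obtained by dividing each tumor's counts by 1 size factor (0.679 to 1.36), which supplied gene symbols. Coordinates are those of GENCODE M21 (GRCm38), which held 55450 of the 55536 identifiers.

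Counts were filtered with filterByExpr (15998 genes), scaled by TMM and tested with the quasi-likelihood test of edgeR 4.0.16 in R 4.3.3, with Benjamini-Hochberg adjustment over all tested genes and a call at an adjusted p under 0.05. No term was fitted for the replicate number. The correlation of deviations between tumors that share a number was 0.29, -0.27 and -0.32 for numbers 1, 3 and 4. Log2 levels used a prior count of 2. The script was tested on data simulated with the estimated dispersions. There the edgeR test recovered 9 of 100 genes changed by 1 on the log2 scale and 75 of 100 changed by 2. DESeq2's Wald test recovered 23 and 90 of 100. False calls were 7.69% of those of edgeR and 23.6% of those of DESeq2. Tumors of a group differed by more than sampling noise (chi-square per degree of freedom of 29.4 to 287). No batch or date is given. The mitochondrial share was 1.37% to 4.72% after saline and 1.59% to 6.65% after PFSUV-IMQ.

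The complement genes, the gene lists and the settings were chosen with earlier results of these data known. All 10 complement genes and Alb are named, with the called genes and the 3 largest changes of each other complement list, the 2 most abundant genes of each marker list, and the 3 genes most like each complement gene, of which the first is printed. The alternatives were DESeq2's size factors, upper-quartile scaling, no filter or at least 10 counts in every tumor, the Wald test of DESeq2 1.42.0, a log2 fold change limit of 1, the replicate number as a block, Alb or the mean of a marker list as a covariate, and each tumor left out in turn. Leaving out saline 4 and PFSUV-IMQ 2 together was added after seeing the data. Promoters are from RefSeq. A further regulator gene is not reported here. Python 3.11.15 with pandas 2.3.3, numpy 2.4.6 and matplotlib 3.10.9 prepared tables and plots.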

Additional observations from a re-analysis of the deposited data

Results flagged for a closer look

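In groups of 4 tumors a single tumor was marked where its gap to the nearest of the others exceeded Dixon's 95% critical share of the group's range. Of 60 groups looked at, 12 were marked. Chance marks about 1 group in 20 where groups are independent. These groups share 8 libraries, and some genes were named by the size of their change, so the 2 shares cannot be compared. PFSUV-IMQ 2 was the marked tumor in 9 of the 12 marked groups and was the highest in each. These were C1s1 at 423 CPM, C3 at 4334 CPM, Cfb at 8.73 CPM, Alb at 22736 CPM, C4a at 69.4 CPM, C1rb at 51.5 CPM, C8a at 286 CPM, Susd4 at 7.89 CPM and Vtn at 1678 CPM. Saline 4 was marked for C4a at 21.4 CPM and Susd4 at 14.5 CPM. PFSUV-IMQ 1 was marked for Col1a1 at 3913 CPM. The genes marked in PFSUV-IMQ 2 include Alb, and their groups overlapped. C2 and C4b were not marked by this measure, but saline 4 and PFSUV-IMQ 2 were the highest of their groups in both genes. C4b was at 275 CPM in saline 4 and at 98.6, 131 and 120 CPM in saline 1, 3 and 5.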

How the results depend on the processing

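Of the 10 complement genes, 1 was called higher with all 8 tumors, 2 without a filter, in DESeq2's Wald test, with the hepatocyte covariate and without saline 4 and PFSUV-IMQ 2 together, 3 with Alb and 4 with the macrophage list as a covariate, and 0 to 2 with 1 tumor left out. Of the other complement genes 0 were called higher, 3 with Alb and 1 with the macrophage list as a covariate, and 1 was called lower, 0 to 1 with 1 tumor left out and 7 with the replicate number as a block. Of all genes 394 were called higher, 712 in DESeq2, 914 with Alb, 776 with the hepatocyte list, 693 with the macrophage list and 198 to 398 with 1 tumor left out. 35 were called lower, 64 without a filter, 170 in DESeq2, 302 with the block, 233 with Alb, 416 with the hepatocyte list, 54 with the macrophage list and 8 to 41 with 1 tumor left out. The cause of these shifts was not tested.

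Whether tumors with the same number share more than that number is not given in the sources used here. The deviations of the same-numbered pairs had r of 0.29, -0.27 and -0.32. These values cannot decide the question, because each compares a single pair and depends on group means that include tumors standing apart. With the replicate block the log2 fold change turned to -0.34 for C1ra, -0.44 for C1s1, -0.56 for C3, -0.031 for Serping1, -0.60 for C7, -0.77 for C8g, -0.56 for Vtn and -0.24 for C3ar1, and moved to 0.48 for Cfb, 0.59 for C4a and 0.24 for C1rb, while C2 (0.87, edgeR adjusted p = 0.0332) kept its call. In the block fit, saline 5 and PFSUV-IMQ 2, whose numbers occur in 1 group, do not inform the difference.

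Other estimates also turned sign. C1qa was 0.0016 with DESeq2's size factors and in DESeq2, C1qc 0.0051 and 0.0050 there and 0.0033 with at least 10 counts in every tumor. With the macrophage list as a covariate C1qa, C1qb and C1qc were 0.10, 0.080 and 0.12, Alb 0.36, C8a 0.073 and Susd4 0.33, and Susd4 was 0.045 without saline 4 and PFSUV-IMQ 2. With 1 tumor left out, log2 fold changes ran from -0.23 to 0.15 for C1qa, -0.26 to 0.086 for C1qb, -0.25 to 0.12 for C1qc, -0.24 to 0.76 for C1ra, -0.27 to 0.84 for C1s1, -0.45 to 0.91 for C3, -1.08 to 0.56 for Alb, -0.28 to 1.25 for C7, -1.37 to 0.31 for C8a, -0.56 to 1.13 for C8g, -0.33 to 1.09 for Vtn, -1.16 to 0.71 for Susd4 and -0.065 to 0.51 for C3ar1. Upper-quartile scaling moved the median of all genes to -0.10. C2, C4b, Cfb and Vsig4 kept their direction in all settings run. Of the 10 complement genes depth limits Cfb most, with 10 reads in saline 5, and C7 had 1 read there.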
